A study of Mus musculus with 6 samples.

Results

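The genes described here make, sense, store and export sterols. They are 30 genes fixed by name, out of 33696 genes in the count matrices of mouse liver immune cells, and each of the 30 had a row in all 3 single-cell RNA libraries. Of these, 18 encode enzymes of cholesterol synthesis, 4 regulate that pathway (Srebf1, Srebf2, Scap and Insig1), 3 move or store sterol (Stard4, Npc1 and Soat1), 3 belong to the efflux programme of the liver X receptors, LXR (Abca1, Abcg1 and Mylip), and 2 encode those receptors (Nr1h2 and Nr1h3). The 18 enzymes with Insig1, Srebf2, Stard4 and Npc1 form the 22-gene SREBP2-type list. It was set against the 3 LXR-type genes in T, invariant natural killer T (iNKT), NK, B, monocyte, patrolling monocyte and dendritic cells.

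The cells came from mice kept for 12 weeks on a diet rated 60% in fat (HFD), alone or with 0.25% hyodeoxycholic acid (HDCA), a bile acid. The 3 groups were wild type (WT) on HFD, WT on HFD with HDCA, and Ja18-/- mice on HFD with HDCA, called iNKT KO in the labels, which lack the joining segment of the invariant iNKT receptor. All groups therefore ate the fatty diet, and the knockout was studied only with HDCA. The design text describes CD45+ liver mononuclear cells sorted at 10000 cells each, while the treatment text speaks of CD4+ cells. B, NK and myeloid cells made up a large part of every library. Each group had 1 RNA library and 1 matched T cell receptor library, and how many mice each one pooled is not stated. With 1 library per group there is no replicate check and no test. Every interval below covers counting error alone, and a difference between libraries cannot be told apart from a difference between the mice or the preparations.

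Cells obtain cholesterol by building it from acetyl-CoA through the mevalonate pathway and by taking it up in lipoproteins. When sterol in the endoplasmic reticulum is scarce, Scap escorts the membrane-bound factor SREBP2 (Srebf2) to the Golgi, where it is cleaved and then switches on the synthesis and uptake genes; Insig1 holds Scap back when sterol is plentiful. Excess sterol gives rise to oxysterols, which bind the receptors LXRα (Nr1h3) and LXRβ (Nr1h2), and these raise the exporters Abca1 and Abcg1 and the ubiquitin ligase Mylip, which promotes loss of lipoprotein receptors. In myeloid cells the balance of the programmes is known to follow lipid load and inflammatory state.

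Promoter sequences are shown for 3 synthesis genes that led in dendritic cells and were higher there with HDCA, and for Abca1, the efflux gene with the lowest ratio in monocytes. They were chosen after their values were seen. RefSeq windows of 300 bases on build GRCm38.p6, from 250 bases before to 50 after an annotated start, were found for 24 of the 30 genes. The sterol response element was searched as TCACNCCAC, the CCAAT box as CCAAT and the E-box as CACGTG, on both strands, together with the LXR element DR4. Capitals mark the matches, a CCAAT box read from the other strand appears as ATTGG, and none of the matches overlap in these windows. The windows lie at chr13:119690101-119690400 on the plus strand for Hmgcs1, chr13:8885356-8885655 on the plus strand for Idi1, chr5:4104648-4104947 on the minus strand for Cyp51 and chr4:53159846-53160145 on the minus strand for Abca1.
Hmgcs1: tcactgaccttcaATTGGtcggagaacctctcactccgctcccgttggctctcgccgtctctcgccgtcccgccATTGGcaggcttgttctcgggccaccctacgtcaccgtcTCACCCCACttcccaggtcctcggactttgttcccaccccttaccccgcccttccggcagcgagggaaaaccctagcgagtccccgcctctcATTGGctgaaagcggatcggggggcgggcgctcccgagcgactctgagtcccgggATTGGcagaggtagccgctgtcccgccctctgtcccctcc
Idi1: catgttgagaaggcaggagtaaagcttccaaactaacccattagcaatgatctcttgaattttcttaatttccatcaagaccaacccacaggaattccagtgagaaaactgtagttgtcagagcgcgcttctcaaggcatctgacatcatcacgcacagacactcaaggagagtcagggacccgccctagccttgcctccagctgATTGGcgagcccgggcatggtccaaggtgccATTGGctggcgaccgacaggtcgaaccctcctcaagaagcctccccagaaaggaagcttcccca
Cyp51: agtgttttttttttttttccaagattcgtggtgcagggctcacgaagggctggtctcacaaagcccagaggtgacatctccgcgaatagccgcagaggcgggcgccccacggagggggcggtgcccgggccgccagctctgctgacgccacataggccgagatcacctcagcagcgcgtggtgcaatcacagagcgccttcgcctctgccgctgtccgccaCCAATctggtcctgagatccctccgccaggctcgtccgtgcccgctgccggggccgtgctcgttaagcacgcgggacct
Abca1: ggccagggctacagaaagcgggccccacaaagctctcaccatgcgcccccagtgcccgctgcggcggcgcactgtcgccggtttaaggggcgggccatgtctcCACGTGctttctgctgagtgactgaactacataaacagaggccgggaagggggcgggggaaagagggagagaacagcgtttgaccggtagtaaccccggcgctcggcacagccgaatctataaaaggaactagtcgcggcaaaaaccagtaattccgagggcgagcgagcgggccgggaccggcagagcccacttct
The Hmgcs1 window held 1 sterol response element, starting at position -137 from the start site, and 4 CCAAT boxes. Idi1 held 2 CCAAT boxes and Cyp51 held 1, and neither matched the sterol response element as spelled. The Abca1 window held 1 E-box and none of the other motifs as spelled, which does not exclude an LXR element of another spelling. Over all windows, a sterol response element was present in 1.24% of 32851 promoter windows and in 1 of the 17 SREBP2-type genes with a window. A CCAAT box was present in 37.4% of all windows and in 16 of those 17 genes, counting a gene with several windows once, which gives such a gene more chances to match. The E-box was present in 7.15% of all windows and in 6 of the 24 genes (Abca1, Dhcr7, Hsd17b7, Insig1, Sc5d and Scap). DR4 as spelled was present in 0.231% of all windows and in none of the 24 genes.

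The libraries held 6479, 10228 and 7153 cell barcodes in the order WT HFD, WT with HDCA, knockout, with totals of 44332213, 70776925 and 46600746 unique molecular identifiers (UMIs, each a counted transcript). After filtering, 6201, 9672 and 6816 cells were kept, and between 67 and 93 barcodes were shared by a pair of libraries. The receptor contigs checked the genotype: iNKT cells, called from a contig joining TRAV11 or TRAV11D to TRAJ18, numbered 332, 450 and 1, and Traj18 had 172, 160 and 0 UMIs. The other classes carried their own markers, among them Cd3e in T cells, Ncr1 in NK cells, Cd79a in B cells, Ly6c2 in monocytes, Ace in patrolling monocytes and Cd209a with Flt3 in dendritic cells. Class sizes ranged from 1801 to 2581 cells for T, 1802 to 2819 for B, 547 to 936 for NK, 173 to 394 for monocytes, 95 to 186 for patrolling monocytes and 45 to 130 for dendritic cells. A cluster of 265, 490 and 591 cells led by Hbb-bs and Hba-a1, with Cd79a and Cd74 also among its leading genes, was left out of every class. Adding it to the B class left all 4 B cell list ratios inside their counting intervals. Another 138 cells of named NK, B or myeloid clusters were left out because they had a receptor contig. Levels are given as UMIs per 1000000 UMIs of the class (CPM), in the same order of libraries. iNKT cells have values in the WT libraries alone.

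The enzymes of cholesterol synthesis were highest in dendritic cells, the antigen-presenting cells marked here by Cd209a, Clec9a, Flt3 and Zbtb46. Each gene was first divided by its own mean over the classes of a library. On that relative scale the median SREBP2-type gene stood at 1.80, 2.49 and 1.84 in dendritic cells, while all other classes lay between 0.535 and 0.982. Dendritic cells were the highest class for 15, 18 and 16 of the 22 genes. How often they were the highest class over all genes was not computed, so this count has no background. Summed over the list, dendritic cells held 983, 1534 and 1034 CPM, against 343, 343 and 356 CPM in T cells and 362, 349 and 386 CPM in B cells. The order of the classes below dendritic cells was not stable: in WT HFD iNKT cells were next and patrolling monocytes lowest, while in iNKT KO T, NK, B, monocyte and patrolling monocyte medians lay within 0.691 to 0.821.

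Within the mevalonate branch, Hmgcs1, the HMG-CoA synthase, had 90.9, 159 and 92.3 CPM in dendritic cells, and its level there was at least 3.30 times that of the next class in every library. Fdps, which makes farnesyl diphosphate, had 192, 275 and 179 CPM and stood at least 4.49 times above the next class. Idi1, the isopentenyl diphosphate isomerase, had 48.4, 114 and 90.8 CPM and stood at least 3.01 times above it. Mvd, the mevalonate diphosphate decarboxylase, had 36.5, 65.5 and 53.0 CPM, at least 2.398 times the next class. In the sterol branch Sqle, the squalene epoxidase, had 31.6, 60.0 and 28.8 CPM in dendritic cells, at least 4.99 times the next class, and Cyp51, the lanosterol demethylase, had 60.3, 124 and 65.1 CPM, at least 2.57 times. These 6 genes were the members of the synthesis group that led in dendritic cells by 2 times or more in all 3 libraries, a lead whose share over all genes was not computed. Mvk, Pmvk, Fdft1, Msmo1, Nsdhl, Insig1, Srebf2 and Stard4 were also highest there in all 3 libraries, by smaller margins. For Stard4, Mvk and Nsdhl the lead in WT HFD was 1.04, 1.13 and 1.13 times, on 21, 9 and 17 UMIs. Their order in that library is not resolved.

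Not every enzyme followed dendritic cells. Ebp, the sterol isomerase of the late pathway, was highest in NK cells, at 90.3, 93.4 and 102 CPM, against 83.0, 75.9 and 74.2 CPM in dendritic cells. Sc5d, the lathosterol desaturase, had 57.9 and 64.2 CPM in iNKT cells of the WT libraries and 19.7, 20.9 and 23.4 CPM in T cells with other receptors. In the WT libraries iNKT cells were thus the highest class for Sc5d, by 1.73 and 1.37 times over the next. Lss, Tm7sf2, Hsd17b7, Dhcr7 and Acat2 changed their highest class from library to library, most of them at low counts.

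The LXR-type genes had another distribution. Their median relative level was 1.83, 1.80 and 1.78 in B cells and 1.76, 1.64 and 2.01 in patrolling monocytes, and it was lowest or next to lowest in dendritic cells, at 0.237, 0.316 and 0.358. In WT HFD+HDCA monocytes stood marginally below dendritic cells, at 0.303. Abca1, the transporter that hands cholesterol to lipid-poor apolipoprotein, was highest in B cells, at 85.6, 82.8 and 84.9 CPM, and rested on 5, 6 and 3 UMIs in dendritic cells. Abcg1, which exports cholesterol to mature lipoprotein particles, was highest in patrolling monocytes, at 131, 112 and 108 CPM, at least 2.15 times the next class. Mylip was highest in B cells, at 160, 148 and 165 CPM, followed by NK cells at 147, 140 and 147 CPM. The B and NK intervals for Mylip overlapped in all 3 libraries, so their order is not resolved. The class that led for synthesis was therefore near the bottom for efflux in every library, while B cells and patrolling monocytes led for efflux and stood below 1 for synthesis.

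**Figure D1:**
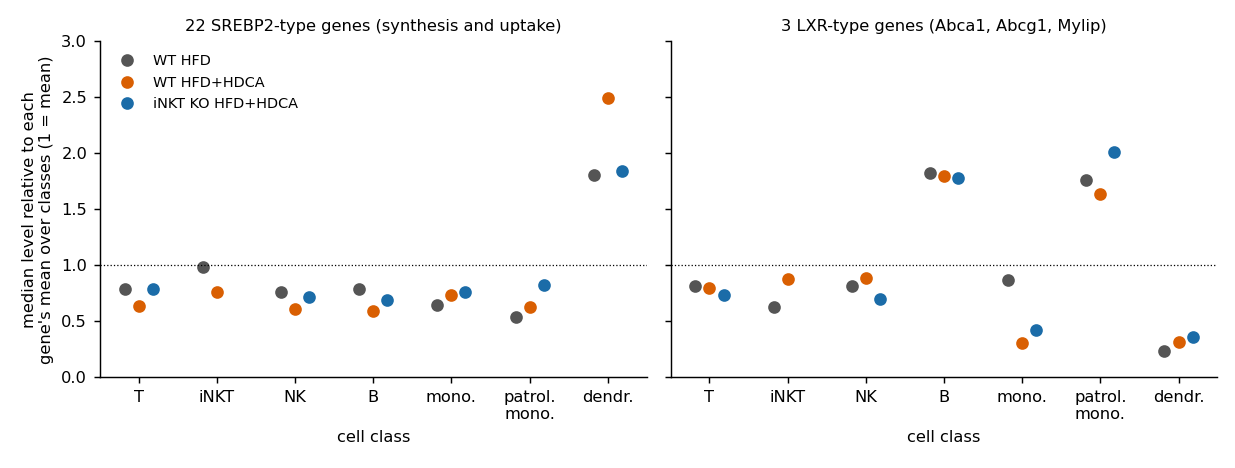
Median level of the 22 SREBP2-type genes (left) and the 3 LXR-type genes (right) in 7 cell classes, each gene relative to its own mean over the classes of a library; 1 point per library, and a dotted line at 1. Dendritic cells stand at 1.80 to 2.49 on the left and at 0.237 to 0.358 on the right, and B cells at 1.78 to 1.83 on the right.

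**Figure D2:**
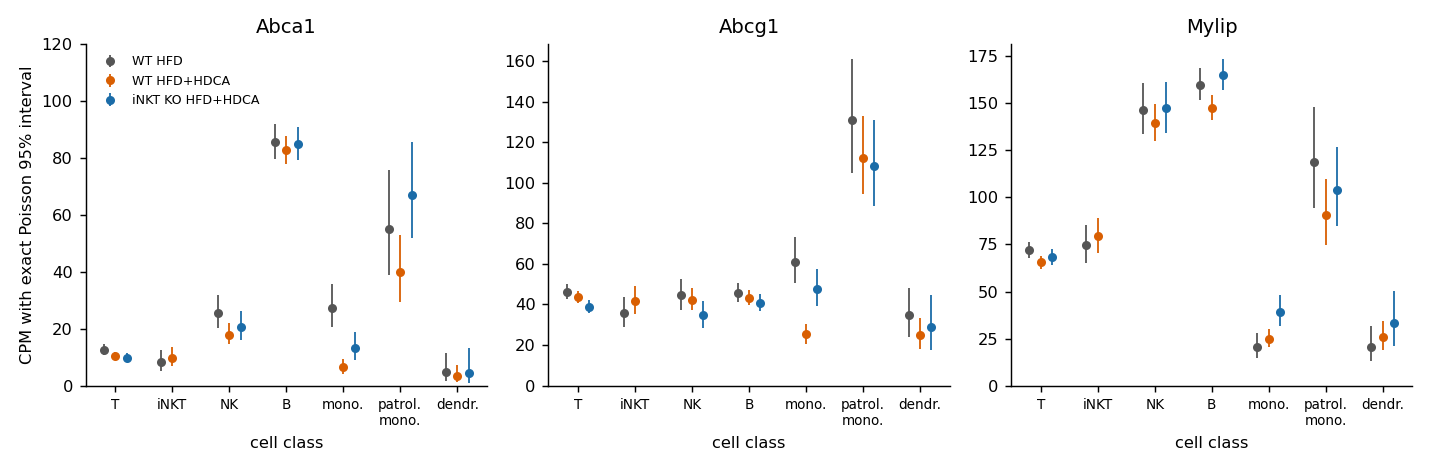
CPM of Abca1, Abcg1 and Mylip by cell class in each library, with exact Poisson 95% intervals (counting error). Abca1 in B cells lies between 82.8 and 85.6 CPM in all libraries, while in monocytes the WT HFD+HDCA point lies below the other libraries for Abca1 and Abcg1.

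Among the regulators, Srebf2 was highest in dendritic cells, at 110, 137 and 117 CPM, with B cells next at 86.5, 76.3 and 93.4 CPM. Srebf1, better known for fatty acid synthesis, varied little, from 14.9 to 30.5 CPM over all 7 classes. Insig1 had 55.3, 60.5 and 39.4 CPM in dendritic cells and 29.4, 37.8 and 33.2 CPM in monocytes. Soat1, the endoplasmic reticulum enzyme that esterifies cholesterol for storage, was highest in monocytes, at 171, 179 and 181 CPM. Patrolling monocytes had 144, 124 and 129 CPM of Soat1, and T cells 19.7, 22.9 and 25.2 CPM. Soat1 was not confined to monocytes: 64.1%, 46.9% and 48.9% of dendritic cells held a UMI of it, against 80.3%, 79.2% and 78.5% of monocytes. Npc1, which releases cholesterol from lysosomes, had 38.2, 34.95 and 27.8 CPM in NK cells and 11.2, 12.1 and 12.3 CPM in B cells. The receptors differed in range: Nr1h2 lay between 53.6 and 110 CPM in every class, whereas Nr1h3 had 22.1, 21.0 and 24.5 CPM in monocytes, 13.4, 24.2 and 23.7 CPM in patrolling monocytes and 4.94, 3.30 and 7.57 CPM in dendritic cells, and did not exceed 0.954 CPM in any lymphocyte class.

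Within the T cell class the synthesis genes varied by cluster. A cluster led by Tnfrsf4, Cd4, Foxp3 and Ctla4, genes of regulatory T cells, held 303, 395 and 373 CPM of the 18 synthesis genes. A cluster led by Dapl1, Cd8b1, Cd8a and Lef1, held 216, 203 and 219 CPM. T cells in the cluster led by cell division genes held 414, 466 and 433 CPM, with 46, 39 and 45 CPM of the LXR-type genes, against 144, 119 and 128 CPM in the Dapl1 cluster. The dividing T cells were few, at 28, 42 and 28. Among B cells 1 small cluster stood apart: 53, 57 and 55 cells led by Pax5 and Immp2l held 785, 719 and 714 CPM of LXR-type genes, while the other B clusters lay between 209 and 353 CPM. That cluster's median of 2021 UMIs per cell was below that of every other B cluster, and what share of its level this accounts for was not tested. These clusters were found on the same cells, so their differences are given as a description.

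Plasmacytoid dendritic cells, the interferon-producing cells marked by Siglech, were not among the 7 classes, and their levels are given beside them. They numbered 73, 115 and 94 cells and exceeded dendritic cells for the SREBP2-type sum, at 1889, 2477 and 2370 CPM. Hmgcs1 had 127, 244 and 190 CPM there, Fdps 356, 441 and 437 CPM, and Insig1 124, 156 and 134 CPM. The LXR-type sum was 36.7, 38.2 and 40.6 CPM, below that of all 7 classes. Siglech itself had 53.3, 37.97 and 43.9 CPM in the dendritic class against 2550, 2565 and 2804 CPM in the plasmacytoid class, so a few cells of the dendritic class carried plasmacytoid transcripts, in 8, 15 and 7 cells.

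**Figure D3:**
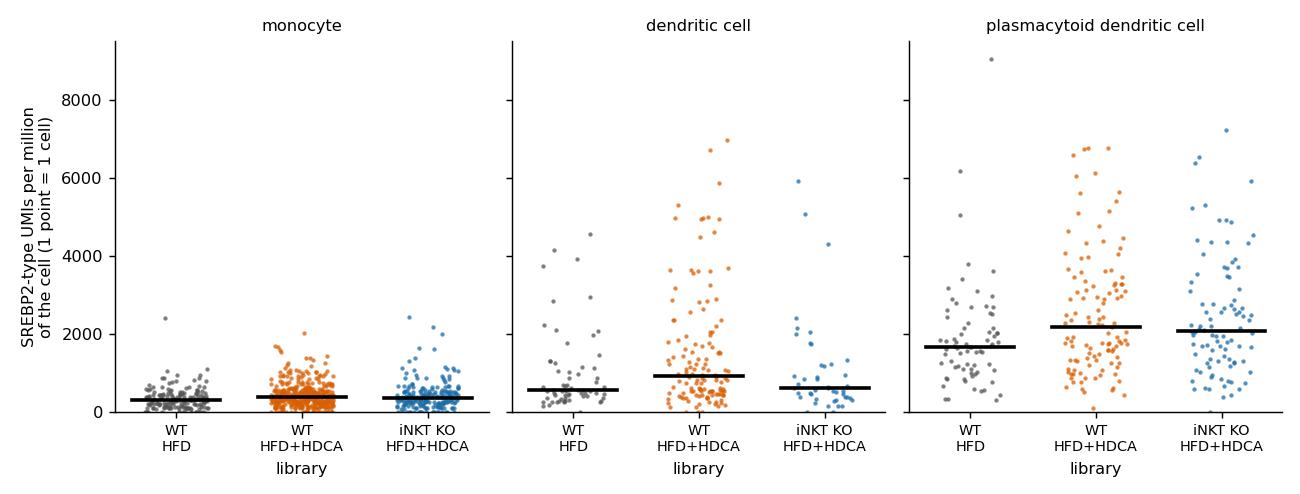
SREBP2-type CPM of each cell, 1 point per cell, in monocytes, dendritic cells and plasmacytoid dendritic cells of each library; black lines are medians over cells. Dendritic medians are 548, 904 and 597 and plasmacytoid medians 1659, 2187 and 2076; points are cells of 1 library each and not replicates.

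The first comparison set the WT library with HDCA against the one without, both from mice with iNKT cells. In dendritic cells 19 of the 20 SREBP2-type genes with at least 20 UMIs were higher in WT HFD+HDCA, where 48.9% of all measured genes were. At least 1.5-fold higher were 10 of the 20, against 8.26% of all 8876 genes measured in that class. The sum ratio was 1.56 (95% interval 1.45 to 1.68), the median log2 ratio of the members was 0.66, and that of all genes was -0.01. The 18 synthesis genes alone gave 1.66 (1.53 to 1.797). The LXR-type ratio in dendritic cells was 0.895 (0.644 to 1.25).

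By branch, all 7 mevalonate genes were higher in dendritic cells of WT HFD+HDCA, with a summed ratio of 1.64 (1.47 to 1.83). Idi1 was 2.35 times its WT HFD level (1.72 to 3.28), Mvd 1.79 times (1.23 to 2.67), Hmgcs1 1.75 times (1.38 to 2.24) and Fdps 1.43 times (1.21 to 1.70). Of the 9 measured squalene and post-squalene genes 8 were higher, with a summed ratio of 1.68 (1.49 to 1.90). Fdft1, the squalene synthase, had 34.6 and 77.0 CPM, a ratio of 2.23 (1.53 to 3.33), and Cyp51 had a ratio of 2.05 (1.54 to 2.77). Nsdhl and Msmo1, which remove the methyl groups of lanosterol, had 16.8 and 35.2 CPM and 53.3 and 101 CPM, ratios of 2.10 (1.21 to 3.82) and 1.90 (1.39 to 2.62), and Sqle reached 1.90 (1.27 to 2.91). Lss had 0 UMIs in WT HFD and 33 in WT HFD+HDCA. Ebp was the exception, at 83.0 and 75.9 CPM. The regulators as a group gave 1.12 (0.947 to 1.32) and the transport and storage genes 0.963 (0.769 to 1.21).

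The makeup of the dendritic class differed between the libraries. The maturation genes Fscn1 and Ccr7 had 1.98, 182 and 680 CPM and 17.8, 250 and 519 CPM, and the 16-gene list of cell division had a sum of 513, 366 and 521 CPM. The T cell marker list summed to 234, 582 and 854 CPM in this class, but it includes Ccr7, given above as a maturation gene. Cd3e had 2, 0 and 0 UMIs in this class. Markers of B cells summed to 1900.5, 1406 and 1291 CPM. The part of these lists in the result was not tested. Leaving out cells with 3 or more UMIs of the maturation genes or 2 or more of a short dividing list, 50 and 104 cells gave a ratio of 1.33 (1.22 to 1.44). Leaving out cells with a Siglech UMI gave 1.45. Among cells under 3 UMIs of the maturation genes that had Cd209a and neither Xcr1 nor Clec9a, 19 and 29 cells gave 1.39 (1.17 to 1.66), and among such cells with Xcr1 or Clec9a and no Cd209a, 16 and 33 cells gave 2.54 (2.19 to 2.96). The sum was thus higher in WT HFD+HDCA in each of these subsets, by amounts that differed. Per cell, the lower quartile, median and upper quartile of the SREBP2-type level were 352, 548 and 1128 CPM without HDCA and 474, 904 and 1926 CPM with it, so the shift covered the middle of the class as well as its top.

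**Figure D4:**
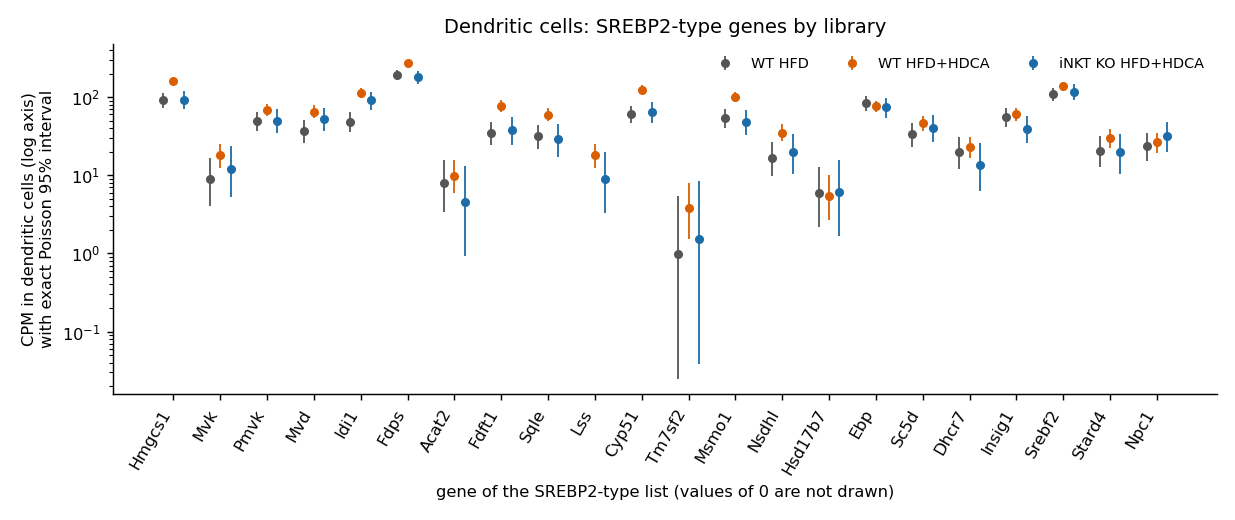
CPM of the 22 SREBP2-type genes in dendritic cells of each library on a log axis, with exact Poisson 95% intervals (counting error). For Hmgcs1, Idi1, Fdft1, Cyp51 and Msmo1 the WT HFD+HDCA point is the highest of the 3, at 159, 114, 77.0, 124 and 101 CPM; Ebp does not follow.

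Plasmacytoid dendritic cells gave an SREBP2-type ratio of 1.31 (1.23 to 1.39) in the same comparison, with 19 of 22 genes higher, where 51.7% of all genes were, and 6 at least 1.5-fold higher against 8.11% of all genes. Hmgcs1 was 1.92 times its WT HFD level (1.54 to 2.41), Msmo1 1.78 times (1.41 to 2.26) and Dhcr7, which makes the final reduction to cholesterol, 1.63 times (1.18 to 2.28). Their LXR-type ratio was 1.04 (0.652 to 1.68).

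In monocytes the efflux genes were lower and the SREBP2-type genes higher in WT HFD+HDCA. Abca1 had 27.3 CPM without and 6.38 CPM with HDCA, a ratio of 0.233 (0.141 to 0.378), from 52 and 27 UMIs in 31 of 173 and 24 of 394 cells. Abcg1 had 61.0 and 25.3 CPM, a ratio of 0.415 (0.316 to 0.544), from 116 and 107 UMIs. For both transporters the interval of the ratio lay below 1, as it did for 5.96% of all genes. Mylip had 20.5 and 24.8 CPM, so the LXR-type sum, at a ratio of 0.519 (0.429 to 0.628), rested on the transporters. At least 1.5-fold lower were 2 of the 3 LXR-type genes, against 4.76% of all 10006 genes measured in monocytes. Nr1h3 stood at 22.1 and 21.0 CPM and Nr1h2 at 53.6 and 54.1 CPM, so the receptor transcripts were level.

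The SREBP2-type sum in monocytes was 349.5 CPM without and 439 CPM with HDCA, a ratio of 1.26 (1.15 to 1.37). Of the 18 measured genes 13 were higher, where 50.5% of all genes were, and 4 were at least 1.5-fold higher, against 7.3% of all genes. Cyp51 had 12.1 and 23.4 CPM, a ratio of 1.93 (1.22 to 3.19), Fdft1 8.41 and 16.1 CPM (1.91, 1.10 to 3.53), and Idi1 9.46 and 17.2 CPM (1.82, 1.08 to 3.24). Srebf2 had 33.6 and 51.0 CPM, a ratio of 1.52 (1.14 to 2.04), and Ebp 67.3 and 84.1 CPM, a ratio of 1.25 (1.02 to 1.54). With each cell thinned to 2000 UMIs the SREBP2-type ratio was 1.06, and without cells holding 2 or more UMIs of the dividing list it was 1.11.

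Other lists moved in monocytes as well. The 14 Kupffer cell genes summed to 438, 282 and 427 CPM, and the dividing list to 108, 222 and 164 CPM. Of the Kupffer list, Clec4f and Vsig4 were at 0 in all libraries, and C1qb had 71.5, 23.4 and 6.56 CPM. The macrophage filter below does not use Adgre1, Slc40a1 and Hmox1 of that list, and their part was not tested. Leaving out cells with 2 or more UMIs of 8 macrophage genes or of a dividing list without Stmn1 and Tubb5, which kept 163 of 173 and 364 of 394 cells and some with single such UMIs, gave an LXR-type ratio of 0.548 (0.445 to 0.676) and an SREBP2-type ratio of 1.26 (1.14 to 1.38). With the full dividing list at the same threshold 113 and 251 cells were kept, and the ratios were 0.551 and 1.11. A further LXR list fixed by name held target genes and also the receptor genes Rxra and Rxrb. Of its 8 measured genes 7 were lower in WT HFD+HDCA, where 49.5% of all genes were. Among them the phospholipid transfer protein Pltp had 73.1 and 40.2 CPM (0.55, 0.437 to 0.693). Of that list only Pltp and Smpdl3a (0.921, 0.855 to 0.992) were lower past their interval, where 5.96% of all genes were. Of 18 measured further genes of sterol handling, 8 were higher and 10 lower.

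Patrolling monocytes, a small class, gave ratios of 1.43 (1.19 to 1.72) for the SREBP2-type and 0.798 (0.665 to 0.959) for the LXR-type list. Of 12 measured SREBP2-type genes 8 were higher, where 50.5% of all genes were, and 6 were at least 1.5-fold higher against 9.21% of all genes. Npc1 and Nsdhl, on 10 to 18 UMIs a library and named for the count alone, were at least 1.5-fold lower, against 7.4% of all genes. Srebf2 had 40.2 and 65.0 CPM, a ratio of 1.62 (1.03 to 2.61). Abca1, Abcg1 and Mylip were each lower, at 55.0 and 40.0, 131 and 112, and 119 and 90.8 CPM, where 49.5% of all genes were, and none of the 3 intervals of the ratio excluded 1. Thinning to 2000 UMIs gave an SREBP2-type ratio of 1.17. The Kupffer list summed to 609.8 and 281 CPM in this class and the T cell markers to 406 and 731 CPM. Leaving out cells with 2 or more UMIs of the macrophage genes removed 2 of 95 and 1 of 186 cells and gave 1.42 and 0.814, so the part of the Kupffer list was hardly tested, and that of the T cell transcripts was not tested.

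In lymphocytes the SREBP2-type sums of whole classes differed little between the WT libraries. The SREBP2-type ratio was 1.001 (0.965 to 1.04) in T cells, 0.993 (0.921 to 1.07) in iNKT cells, 1.02 (0.946 to 1.10) in NK cells and 0.964 (0.920 to 1.01) in B cells. As far as counting error goes, the intervals of T, NK and B cells leave room for a ratio between 0.920 and 1.10 and no further. Within the T cells, the Foxp3 and Ctla4 cluster differed from the class: its SREBP2-type sum was 398 CPM (368 to 431) without and 515 CPM (488 to 544) with HDCA, from 225 and 389 cells. The LXR-type ratio was 0.913 (0.859 to 0.970) in T cells, 0.940 (0.893 to 0.990) in B cells, 0.923 (0.838 to 1.02) in NK cells and 1.10 (0.957 to 1.28) in iNKT cells. All 3 LXR-type genes were lower in T, NK and B cells, where 48.5%, 53.4% and 48.7% of all genes were, and higher in iNKT cells, where 54% were. B cell transcripts in the T class differed between the libraries as well. Cd79a had 41.5, 22.3 and 41.0 CPM there, against 4209, 4415 and 4337 CPM in B cells. The 41 B cell markers summed to 1076, 777 and 812 CPM in the T class. B cells were the highest class for Abca1 and Mylip, and the part of these transcripts in the T cell ratios was not tested.

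Single members shifted modestly. Idi1 was lower in T cells, at 11.9 and 8.55 CPM (0.721, 0.580 to 0.897), and in B cells, at 13.8 and 9.17 CPM (0.662, 0.509 to 0.862), opposite to its direction in dendritic cells and monocytes. In T cells Hmgcs1 had 14.8 and 17.7 CPM, Dhcr7 13.7 and 17.1 CPM and Npc1 13.7 and 17.3 CPM, while Mylip had 71.9 and 65.4 CPM and Nr1h2 77.2 and 70.4 CPM. In B cells Pmvk had 24.0 and 29.4 CPM, Acat2 9.59 and 6.95 CPM, Srebf2 86.5 and 76.3 CPM and Mylip 160 and 148 CPM. For these genes the 95% interval of the ratio excluded 1, which held for 3 higher and 3 lower of 30 measured members in T cells, against 10.5% and 9.66% of all genes, and for 1 higher and 4 lower of 29 in B cells, against 8.09% and 7.37%. Abca1 in NK cells had 25.4 and 17.9 CPM (0.705, 0.519 to 0.958), the one member of 28 past its interval there, where 6.72% of all genes were lower by that rule. In iNKT cells Npc1, at 22.9 and 14.1 CPM, and Nr1h2, at 87.6 and 71.8 CPM, were lower by it, against 4.55% of all genes.

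The second comparison set the knockout library against the WT library, both from mice fed HDCA. It shares the WT HFD+HDCA library with the first, so a library that stood high or low there would give opposite ratios in the comparisons. In dendritic cells 19 of 20 measured SREBP2-type genes were lower in the knockout, where 51.6% of all genes were, and 12 were at least 1.5-fold lower against 10.2% of all 8610 genes. The sum ratio was 0.674 (0.619 to 0.733), and the median log2 ratio was -0.62, with all genes at -0.01. Msmo1 was 0.478 times its WT HFD+HDCA level (0.318 to 0.699), Sqle 0.479 times (0.278 to 0.785), Fdft1 0.491 times (0.307 to 0.755) and Cyp51 0.526 times (0.370 to 0.731). Hmgcs1 followed at 0.581 (0.433 to 0.767) and Fdps at 0.650 (0.528 to 0.796). These 6 were lower past their interval, where 5.62% of all genes were. Npc1 alone was higher, at 26.4 and 31.8 CPM. The knockout's levels lay near those of WT HFD for Hmgcs1, Cyp51 and Sqle, and nearer to WT HFD+HDCA for Idi1 and Mvd.

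The knockout value rested on 45 cells, and 1 of them held 21.3% of the Hmgcs1 UMIs. Without the cell with most SREBP2-type UMIs in each library the ratio was 0.605. Among cells under 3 UMIs of the maturation genes and under 2 of the short dividing list, 29 knockout and 104 WT cells gave 0.750 (0.678 to 0.827). The same Cd209a subset as above gave 0.753 (0.624 to 0.904) from 15 and 29 cells. Leaving out every cell with 2 or more UMIs of the full dividing list, which left 8 and 20 cells, moved the ratio to 0.921. In plasmacytoid dendritic cells the same ratio was 0.957 (0.907 to 1.01), with 9 of 22 genes higher, where 48.4% of all genes were, and none past 1.5-fold, where 6.26% of all genes were higher and 7.51% lower by that rule. Hmgcs1, Cyp51 and Dhcr7 were lower past their interval there, at 0.777, 0.749 and 0.745 times their WT HFD+HDCA levels, where 5.4% of all genes were.

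In monocytes the LXR-type genes were higher in the knockout, at a ratio of 1.77 (1.47 to 2.14). Abca1 had 6.38 CPM in WT HFD+HDCA and 13.1 CPM in the knockout (2.06, 1.18 to 3.596), Abcg1 25.3 and 47.7 CPM (1.89, 1.43 to 2.49) and Mylip 24.8 and 39.3 CPM (1.59, 1.18 to 2.12). All 3 were at least 1.5-fold higher, against 5.19% of all 10098 genes measured. Across the 3 libraries Abca1 and Abcg1 thus stood highest in WT HFD, lowest in WT HFD+HDCA and between them in the knockout, while Mylip was highest in the knockout. Leaving out cells with 2 or more UMIs of the macrophage or shorter dividing list kept 364 WT and 197 of 209 knockout cells and gave 1.93 (1.59 to 2.35), and the full dividing list gave 2.07. Pltp moved the same way, at 40.2 and 81.3 CPM. Of the 8 measured genes of the further LXR list, which includes Rxra and Rxrb, 7 were higher, where 50.4% of all genes were. Of that list only Pltp and Smpdl3a (1.08, 1.003 to 1.15) were higher past their interval, where 7.99% of all genes were.

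The SREBP2-type sum in monocytes was level between these libraries, at 439 and 437 CPM, a ratio of 0.995 (0.920 to 1.07), with 7 of 19 measured genes higher, where 50.4% of all genes were. Hmgcs1, at 19.4 and 28.0 CPM (1.44, 1.03 to 2.03), and Npc1, at 24.3 and 33.7 CPM (1.38, 1.02 to 1.88), were higher past their interval, where 7.99% of all genes were. In patrolling monocytes the ratios were 1.11 (0.963 to 1.27) for the SREBP2-type and 1.15 (0.970 to 1.36) for the LXR-type list, and Abca1 had 40.0 and 67.1 CPM (1.68, 1.14 to 2.49). Abca1 and Idi1, the latter with few UMIs and named for the count alone, were the members higher past their interval, where 6.43% of all genes were.

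In B cells the SREBP2-type sum was higher in the knockout, at 349 and 386 CPM, a ratio of 1.11 (1.06 to 1.16), with 17 of 22 genes higher where 56.9% of all genes were. Srebf2 had the widest difference in CPM, at 76.3 and 93.4 CPM (1.22, 1.12 to 1.34). Acat2 was 1.58 times its WT HFD+HDCA level (1.18 to 2.12), Idi1 9.17 and 12.3 CPM and Tm7sf2 2.90 and 1.49 CPM, and Mylip had 148 and 165 CPM and Nr1h2 71.0 and 84.7 CPM. Higher past their interval were 5 of 29 members, against 13.2% of all genes, and Tm7sf2 was lower by that rule, against 7.88%. The hepatocyte list in B cells summed to 4.62, 17.7 and 3.74 CPM over the 3 libraries, and its part in the B cell values was not tested.

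T cells gave an SREBP2-type ratio of 1.04 (0.999 to 1.07) and NK cells 1.004 (0.933 to 1.08). In T cells Idi1, at 8.55 and 12.3 CPM, Nsdhl, at a ratio of 1.33 (1.07 to 1.65), and Srebf2, at 39.6 and 46.4 CPM, were higher past their interval, and Mvd, at 11.2 and 8.78 CPM, Npc1, at 17.3 and 13.3 CPM, and Abcg1, at 43.5 and 39.0 CPM, were lower, shares of the 30 members close to the 11.1% and 13.8% of all genes. In NK cells Nr1h2 had 88.0 and 110 CPM, the one member of 28 past its interval, where 8.23% of all genes were higher by it. The NK class differed in makeup between these libraries: a cluster led by Gzma, Klrg1 and S1pr5 held 28 of 936 NK cells in WT and 196 of 602 in the knockout. Its SREBP2-type sum was 359 and 365 CPM, against 362 and 363 CPM in the other NK cluster, and its part in the Nr1h2 value was not tested. The LXR-type ratio was 0.980 (0.920 to 1.04) in T cells, 1.01 (0.919 to 1.12) in NK cells, 1.06 (1.01 to 1.12) in B cells and 1.23 (0.845 to 1.78) in dendritic cells.

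**Figure D5:**
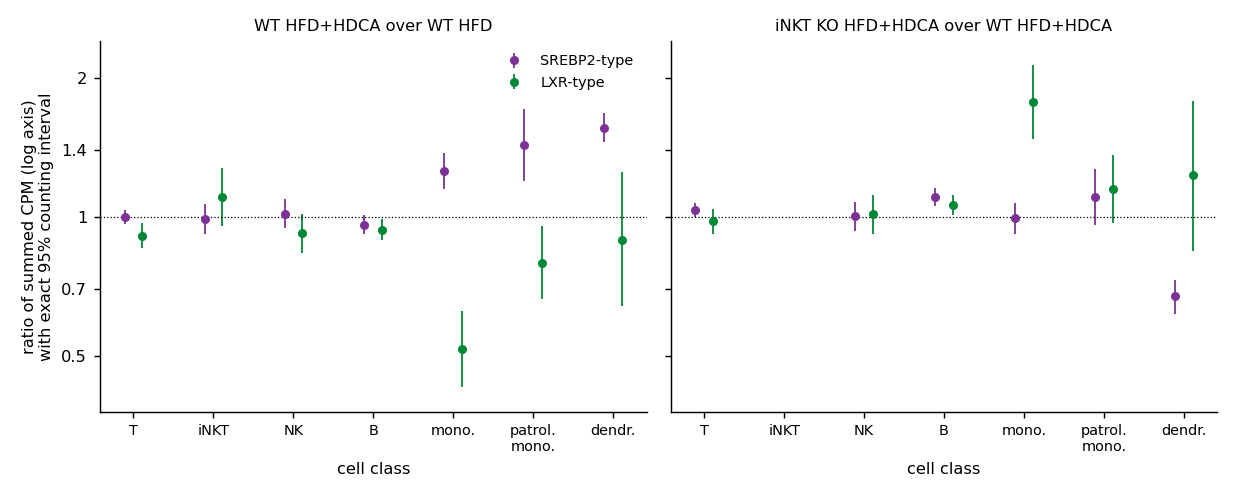
Ratio of summed CPM of the SREBP2-type and LXR-type genes by cell class on a log axis, for HDCA in WT (left, with over without) and for the knockout under HDCA (right, knockout over WT), with exact 95% intervals of the ratio (counting error) and a dotted line at 1. Dendritic cells lie at 1.56 and 0.674 for the SREBP2-type genes and monocytes at 0.519 and 1.77 for the LXR-type genes; the sides share the WT HFD+HDCA library, and iNKT cells have no value on the right.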

How the data were processed

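Single-cell RNA and T cell receptor libraries of 3 groups, 1 of each per group, were used. The authors deposited UMI counts per gene and cell and receptor contig tables, made with Cell Ranger 8.0.1 per the submitters' processing notes, which name both mm10 and GRCm39. Ratios cover counting error alone, since each group had 1 library. Cells with under 200 genes or over 10% mitochondrial UMIs and Scrublet doublets were left out. Cells were clustered with scanpy 1.11.5 and leidenalg 0.10.2 (2000 variable genes, 30 components, 20 neighbours, resolution 1) and named by marker lists; T and iNKT cells came from contigs. Class levels are summed counts over the class total (CPM), with exact Poisson 95% intervals and conditional exact 95% intervals for ratios (scipy 1.17.1). A gene was measured with at least 20 UMIs over both libraries, and 1.5-fold was the size used for counts of shifts. Members were given values in the text where they had at least 50 UMIs and an interval excluding 1, or led the next class by 2 times in every library; others were named as examples. The ratio and interval code was tested on simulated Poisson counts, which hold no spread between cells or mice. The other steps were not tested in this way. Members and lists were chosen with earlier results of these data known.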

Additional observations from a re-analysis of the deposited data

Results flagged for a closer look

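The SREBP2-type sums of B cells and dendritic cells lay on opposite sides of 1 in the knockout under HDCA. Knockout over WT, both with HDCA, it was 0.674 in dendritic cells and 1.11 in B cells, with intervals of counting error on either side of 1. Each group had 1 library, so the difference between the classes was not tested.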

How the results depend on the processing

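No paired analysis was possible because each group had 1 library. The 26 list ratios were recomputed under up to 19 settings, giving 345 alternative values, of which 331 kept their direction and 326 lay inside the counting interval of the reported value. Thinning cells to 2000 UMIs moved the SREBP2-type HDCA ratio to 1.07 in T, 0.897 in iNKT, 1.06 in monocytes and 1.17 in patrolling monocytes, and the LXR-type knockout ratio in monocytes to 2.20. Leaving out cells with 2 or more UMIs of the dividing list moved the SREBP2-type HDCA ratio to 0.832 in iNKT, 1.11 in monocytes and 2.24 in dendritic cells, the dendritic knockout ratio to 0.921, and the LXR-type ratio to 0.944 in iNKT (HDCA) and 0.892 in T (knockout). In WT HFD and WT HFD+HDCA it kept only 10 of 64 and 20 of 130 dendritic cells, and 101 of 329 and 172 of 446 iNKT cells. The same filter without Stmn1 and Tubb5, chosen after seeing the data, gave 1.38 and 0.762 in dendritic cells. Taking T cells by cluster gave LXR-type ratios of 0.854 (HDCA) and 1.07 (knockout) and an SREBP2-type knockout ratio of 0.993. Without the cell with most list UMIs the dendritic knockout ratio was 0.605. Clustering each library alone gave LXR-type knockout ratios of 1.15 in B cells and 2.28 in monocytes, and no knockout value for dendritic cells or patrolling monocytes. With 2-fold in place of 1.5-fold, members past it numbered 0 in iNKT, NK and B cells, 2 in monocytes, 3 in patrolling monocytes and 6 in dendritic cells for HDCA, and 0 in NK and B cells, 1 in monocytes, 2 in patrolling monocytes and 4 in dendritic cells for the knockout. The share of all genes past 2-fold was not computed, so these counts have no background and show only how the threshold changes them. As means over libraries of per-cell CPM, iNKT cells held 439 CPM of SREBP2-type genes and NK and B cells 230.4 and 298 CPM of LXR-type genes. Thinned, iNKT cells held 451 and NK cells 223 CPM. The cause of these shifts was not tested. The number of cells limits the small classes, with 95, 186 and 142 patrolling monocytes and 64, 130 and 45 dendritic cells.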
